A study of Apis mellifera with 12 samples.

Results

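The honey bee miRNAs ame-miR-275 and ame-miR-305 were examined as a pair because they are encoded side by side. They were chosen by name and make up 2 of the 168 honey bee (Apis mellifera) miRNA probes on the array, each printed in 18 spots. The tested brains came from workers injected when newly emerged with double-stranded RNA (dsRNA) against vitellogenin (dsVg), the yolk precursor that in workers also acts in nutrition and behavioural maturation. Control workers received the same treatment with dsRNA against green fluorescent protein (dsGFP), a gene that bees lack. Both groups received 2 µL at 10 µg/µL and were 15 days old at sampling, and the source names call all of them forager brains. Each group had 6 pools, and a pool held 1 µg of RNA shorter than 200 nucleotides, 200 ng from each of 5 brains, on an array of its own. The labels do not say whether the pools hold different bees, so p-values measure the spread between pools. The dsRNA was injected into the abdomen, and vitellogenin mRNA was not analysed here. In such pools a lower signal may mean fewer cells of a type or less miRNA per cell, which cannot be told apart.

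A miRNA is a short RNA that guides a silencing complex to messenger RNAs matching its seed, bases 2 to 8 from its 5′ end. In mosquitoes miR-275 is needed for blood digestion and egg development and responds to amino acids and steroid hormone. In the fruit fly miR-305 acts in the gut, where it adjusts stem cell behaviour to nutrition. Neighbouring miRNA genes are often cut from 1 primary transcript, although each mature miRNA can then be processed and degraded at its own pace. In the RefSeq annotation of assembly Amel_HAv3.1, Mir275 and Mir305 are adjacent genes, and both lie within the span of the long non-coding RNA gene LOC102655676. That table gives no strand, so whether they share its transcript was not analysed here.

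The target sequences deposited with the array show how different the members are, with the seed in capitals. The last, ame-miR-306, is shown because it is the 1 other miRNA on the array with the seed of miR-275.
ame-miR-275: uCAGGUACcugaaguagcgcgcg
ame-miR-305: aUUGUACUucaucaggugcucug
ame-miR-306: uCAGGUACugagugacucugag
The first 8 bases of miR-275 and miR-306 are identical. No other probe shares the seed of miR-305. Both members are 23 bases long, but miR-275 is 60.9% G and C and miR-305 is 43.5%, against a median of 45.5% over the 168 probes.

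Further features concern pairing. The first 12 bases of miR-275 read the same as their own reverse complement, shown in capitals in the first line below. Such self-complementary runs have a median length of 4 bases over the 168 probes, and only miR-275 and miR-3755 have one of 12 or more. Bases 10 to 16 of miR-275 are also the exact complement of bases 5 to 11 of miR-305, shown in capitals in the other lines.
miR-275, self-complementary run: UCAGGUACCUGAaguagcgcgcg
miR-275, complement of miR-305: ucagguaccUGAAGUAgcgcgcg
miR-305, complement of miR-275: auugUACUUCAucaggugcucug
A complementary run of 7 or more bases occurs in 1.5% of the 14028 pairs of probes. Whether pairing of either kind affects the array signal was not tested.

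The brightness of the spots sets what can be said of each member. On all 12 arrays miR-275 was detected, meaning that its 18 spots averaged more than the 95th percentile among the 608 empty spots of the same array. Its mean raw intensity was 2.63 to 26.7 times the median empty spot, and it ranked between 14 and 27 in brightness among the 168 probes. The levels of miR-305 were close to background, at 0.736 to 4.01 times the median empty spot, with ranks between 43 and 85. It was detected on 4 of 6 dsVg arrays and on 6 of 6 dsGFP arrays. The pools below the limit were dsVg pools 4 and 5, and in dsVg pool 5 its 18 spots averaged 352 where the median empty spot was at 478. On these arrays the median of all 168 probes was also below the median empty spot, at 113 against 147 in dsVg pool 4 and 352 against 478 in dsVg pool 5. This was also so in dsVg pool 6 and dsGFP pool 2. Only 47 and 34 miRNAs were detected in dsVg pools 4 and 5, where the counts ran from 34 to 168 over all arrays. On some arrays the limit passed nearly all of the 168 probes, with 168 in dsVg pool 1 and 165 in dsGFP pool 1. Detection there says little of miR-305, which was at 1.21 and 1.39 times the median empty spot. Its 4 of 6 against 6 of 6 arrays is therefore not read as a group difference. Near background, differences in signal understate differences in abundance. The 1 array with clearly bright miR-305 spots was that of dsVg pool 3, where they ranged from 430 to 601 against a median empty spot of 129.

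**Figure D1:**
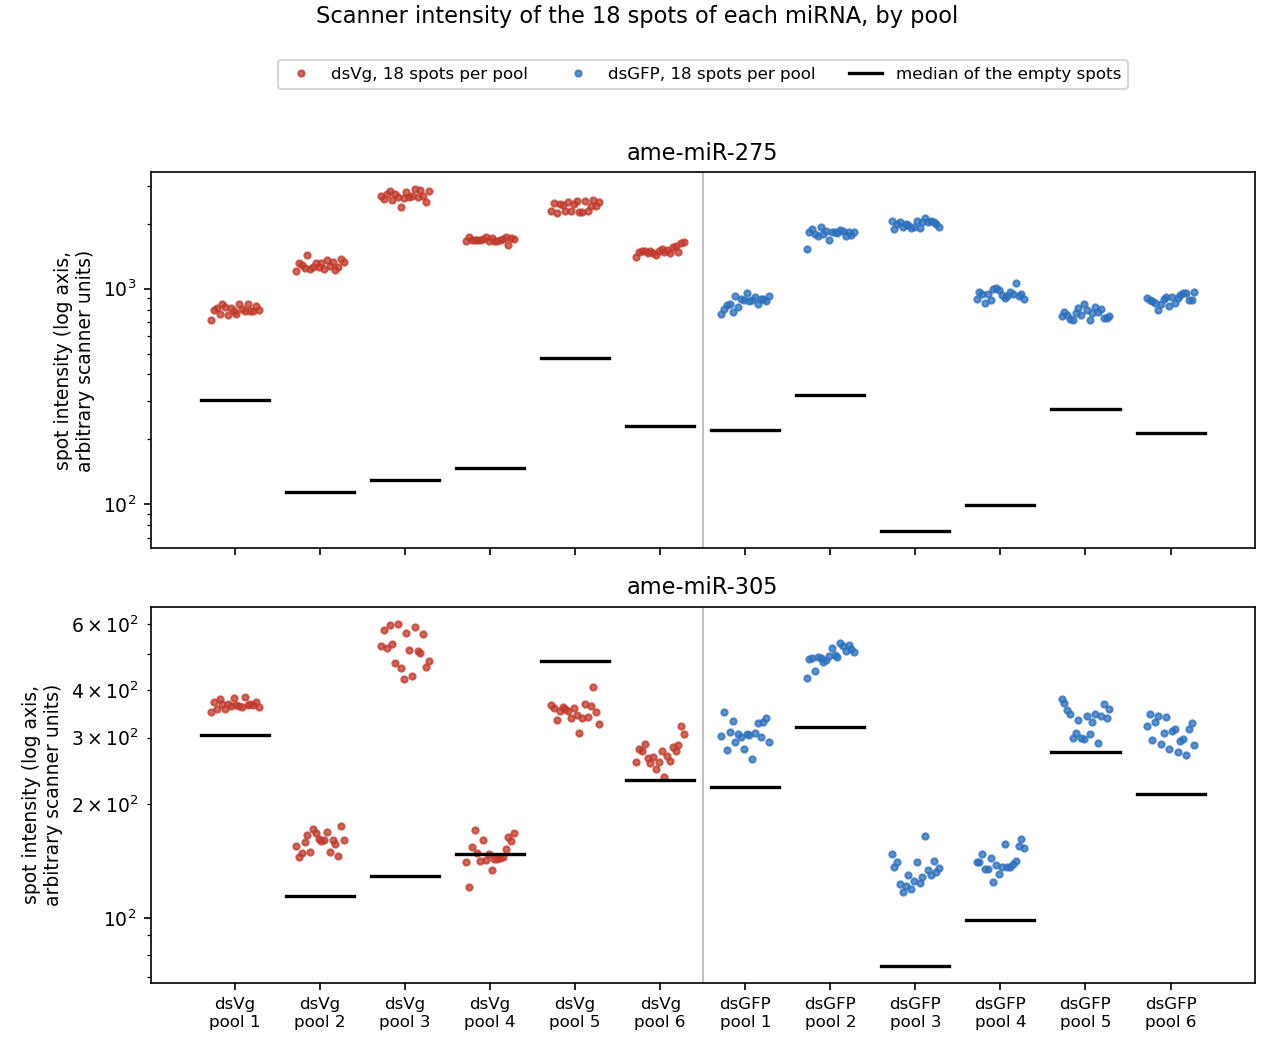
Raw intensity of the 18 spots of miR-275 (top) and miR-305 (bottom) on each of the 12 arrays, on a log axis in scanner units, with dsVg pools on the left and dsGFP pools on the right. Black bars are the median of the empty spots of that array; miR-275 lies above them throughout, whereas miR-305 lies at or below them in dsVg pools 4 and 5.

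The spots of a member agreed closely within an array. The coefficient of variation over 18 spots was 2.06% to 6.02% for miR-275 and 2.35% to 10.5% for miR-305. On the log2 scale the median spot SD was 0.070 for miR-275, while its raw array means had an SD of 0.65 over the 12 pools. For miR-305 these values were 0.11 and 0.70. Differences between raw array means were therefore many times larger than spot error. Those means include the brightness and background of the whole array, and the median empty spot ran from 75 to 478.

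For miR-275, levels are given as log2 intensity after normexp background correction and quantile normalization, the main scale used here. The lowest, median and highest dsVg pools were at 9.88, 10.58 and 11.68, and the same 3 values for dsGFP were 9.74, 9.87 and 10.51. Pools 1, 2 and 5 of dsVg lay above every dsGFP pool, whereas dsVg pools 3 and 6 lay within the dsGFP range, so the groups overlapped. Quantile normalization gives equal values to equal ranks, which is why dsVg pool 4 and dsGFP pool 4 are both at 10.51. The mean was 10.58 ± 0.64 in dsVg pools and 9.97 ± 0.28 in dsGFP pools (SD, n = 6 each). The difference of 0.61 (SE 0.27) corresponds to 1.53-fold, with a 95% interval of 1.02 to 2.29. It did not pass adjustment over the 84 miRNAs tested (limma adjusted p = 0.666, unadjusted p = 0.0425, two-sided exact permutation p = 0.0368), and 5 of 6 dsVg pools lay above the dsGFP mean. Of the 84 miRNAs, 0% passed at an adjusted p under 0.05 and 3.57% had an unadjusted p under 0.05, by limma and by the exact test alike. The groups of 0% of the 84 were without overlap.

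For miR-305 on the same scale, the lowest, median and highest dsVg pools were at 6.65, 7.20 and 7.58, and those of dsGFP were at 6.96, 7.54 and 7.81. The groups overlapped over most of their range, with dsVg pool 5 alone below every dsGFP pool. The mean was 7.18 ± 0.31 in dsVg pools and 7.47 ± 0.31 in dsGFP pools (SD, n = 6 each), and 5 of 6 dsVg pools lay below the dsGFP mean. The difference of -0.29 (SE 0.17) corresponds to 0.816-fold, with a 95% interval of 0.628 to 1.06 (limma adjusted p = 0.772, unadjusted p = 0.117, two-sided exact permutation p = 0.128). That interval includes no change.

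**Figure D2:**
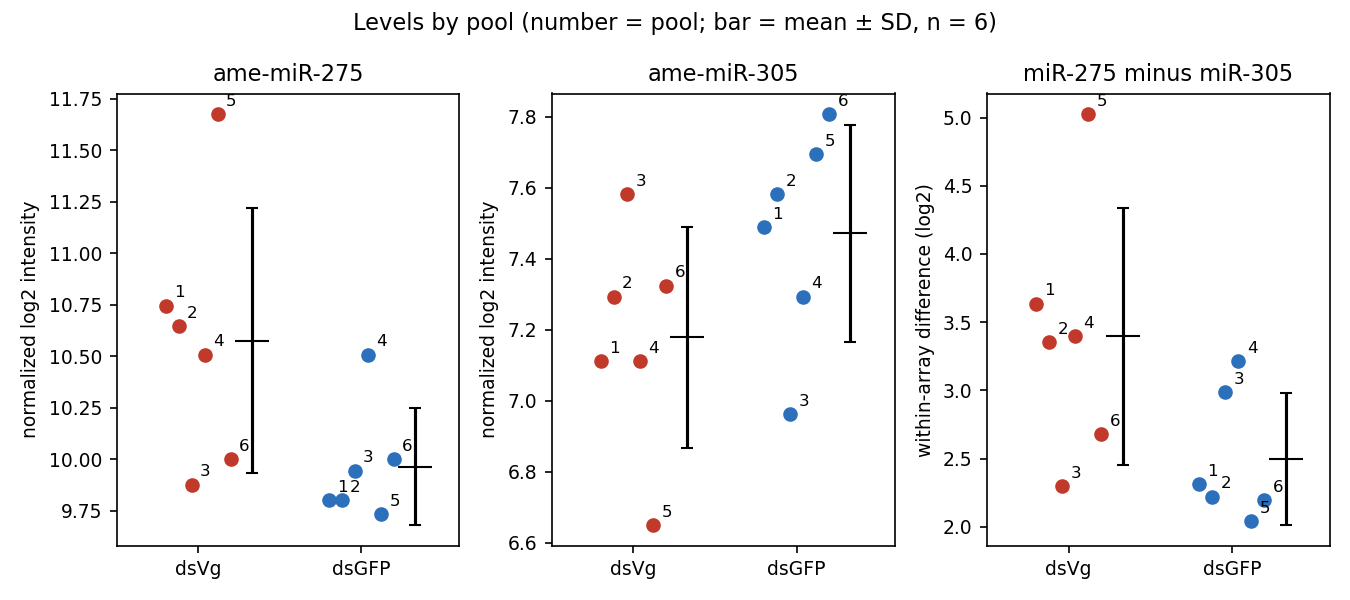
Normalized log2 intensity of miR-275 and miR-305 and their within-array difference, by pool, with dsVg on the left of each panel and dsGFP on the right. Numbers are pool numbers and bars are the mean ± SD (n = 6); dsVg pool 5 has the highest miR-275 (11.68), the lowest miR-305 (6.65) and the widest difference (5.03), where miR-305 was not above background in dsVg pools 4 and 5.

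The authors' table of processed values, whole-number intensities of unstated normalization, was read as a second scale. There miR-275 had a lowest, median and highest value of 540, 891 and 1473 in dsVg pools, and of 446, 618 and 824 in dsGFP pools. On this scale 4 of the 6 dsVg pools (1, 2, 4 and 5) lay above every dsGFP pool. For miR-305 the same 3 values were 29, 45 and 79 in dsVg pools and 28, 65.5 and 87 in dsGFP pools, which overlap fully. After log2(value + 1), the differences were 0.48 (SE 0.27, limma adjusted p = 0.531) for miR-275 and -0.36 (SE 0.30, limma adjusted p = 0.652) for miR-305.

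The spread of miR-275 also differed between the groups. Its SD over dsVg pools was 2.26 times that over dsGFP pools, where the median of this ratio over the 84 tested miRNAs was 1.48. The SDs of miR-305 were close, with a ratio of 1.02. For miR-275 the ratio was 1.38 without dsVg pool 5, 1.11 without between-array normalization and 1.75 in the authors' processed values (log2). For miR-305 it was 0.633, 1.40 and 0.789 in the same order.

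The ratio of the pair was taken within each array as the log2 level of miR-275 minus that of miR-305. Probes differ in binding, so its level is no ratio of molecules, and only its variation between pools is described. The lowest, median and highest values were 2.30, 3.38 and 5.03 in dsVg pools, and 2.04, 2.27 and 3.22 in dsGFP pools. Pools 1, 2, 4 and 5 of dsVg lay above every dsGFP pool, and dsVg pools 3 and 6 lay within the dsGFP range. In dsVg pools 4 and 5 miR-305 was not above background, so their ratios are not exact, and neither are the dsVg mean and the difference that include them. The mean was 3.40 ± 0.94 in dsVg pools and 2.49 ± 0.48 in dsGFP pools (SD, n = 6 each). The difference was 0.90 (SE 0.43), and 0.49 (SE 0.34) without dsVg pools 4 and 5, with no p-value given because the pair was chosen with earlier results of these data known.

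A within-array ratio does not change when a whole array is scaled up or down, but quantile normalization stretches arrays unequally. With any single scaling factor per array, or none, the ratio averaged 3.13 ± 0.76 in dsVg pools and 2.59 ± 0.82 in dsGFP pools (SD, n = 6 each). The difference was then 0.54 (SE 0.46), smaller than the spread between pools of either group. On that scale the groups overlapped widely, from 1.97 to 3.91 in dsVg pools and from 1.88 to 4.05 in dsGFP pools. In the authors' processed values the ratio averaged 4.20 ± 0.97 in dsVg pools and 3.36 ± 0.89 in dsGFP pools, a difference of 0.84 (SE 0.54). The difference in ratio was positive under all 29 other settings run, from 0.26 to 1.63, several of which share 1 value by construction. Its low end came from the 6 arrays on which most dim probes exceeded the empty spots (0.26, SE 0.49), and the other 6 arrays gave 1.55 (SE 0.70). Each kind of array, set by whether more than 80 miRNAs were detected, held 3 pools of each group. The other 6 arrays include dsVg pools 4 and 5, where miR-305 was not above background, so the 1.55 is not exact. Without dsVg pool 5 the difference was 0.58, and without dsVg pools 1 and 5 it was 0.45. The high end of 1.63 (SE 0.92) came with the empty-spot median subtracted. There, spots at or below that median were set to a floor of 1, as were all miR-305 spots of dsVg pool 5.

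**Figure D3:**
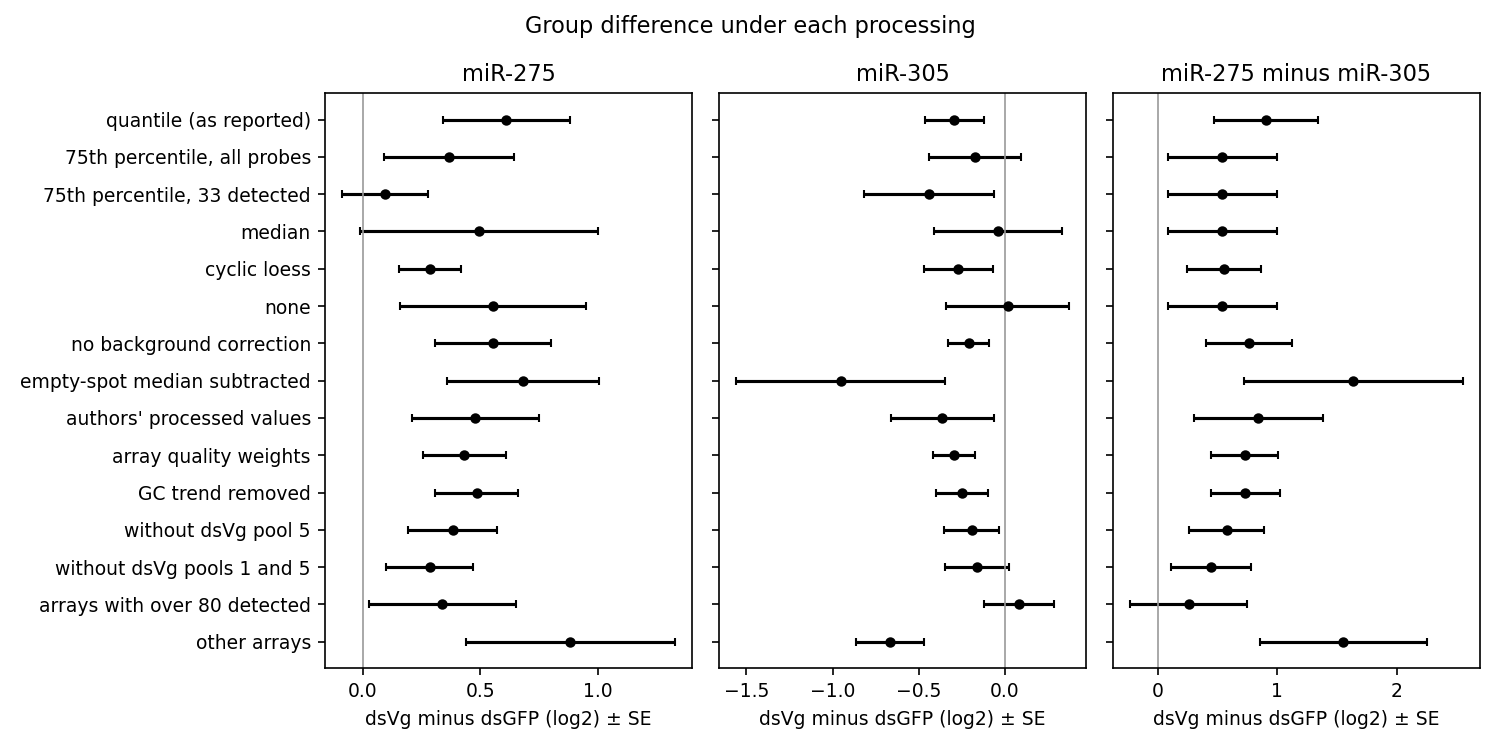
Difference between dsVg and dsGFP pools (log2, ± SE) for miR-275, miR-305 and their within-array ratio under the main processing (top row) and 14 of the alternatives. The values of miR-275 run from 0.095 to 0.88 and stay above 0, those of miR-305 run from -0.95 to 0.081, and the ratio is at 0.54, the same by construction, in each of the 4 rows that use 1 scaling factor per array or none. The -0.95 is with the empty-spot median subtracted, where the miR-305 spots of dsVg pool 5 were set to a floor. The row of the other arrays includes dsVg pools 4 and 5, where miR-305 was not above background.

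Both members' differences moved with the scaling. Scaling to the 75th percentile of the 33 miRNAs detected on all 12 arrays put miR-275 at 0.095 (SE 0.18) and miR-305 at -0.44 (SE 0.38). Without between-array normalization they were at 0.55 (SE 0.40) and 0.016 (SE 0.36). The median difference over all 84 tested miRNAs was -0.31 in the first case and 0.15 in the second. Relative to that median, miR-275 was at 0.40 and miR-305 at -0.14 under each single-factor scaling, the same by construction. Under quantile normalization these distances were 0.59 and -0.32. Within the arrays with more than 80 detected miRNAs the differences were 0.34 (SE 0.31) and 0.081 (SE 0.21), and within the other arrays they were 0.88 (SE 0.45) and -0.67 (SE 0.20), for miR-275 and miR-305 in turn. The dsVg pools among the other arrays were 4, 5 and 6. The -0.67 therefore rests in part on dsVg pools 4 and 5, where miR-305 was not above background. Without dsVg pool 5 the difference of miR-275 was 0.38 and that of miR-305 was -0.19.

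After quantile normalization the pair varied in opposite directions over the 12 pools. The pools with the most miR-275, dsVg pools 5 and 1, were low in miR-305, and dsGFP pool 5, with the least miR-275, was above every dsVg pool in miR-305. Pearson's r was -0.78 (permutation p = 0.00250, adjusted p = 0.00357 over 3 relations) and Spearman's rho was -0.70 (permutation p = 0.0136, adjusted p = 0.0136). The pair was chosen with earlier results of these data known, which the p-values of this relation do not take into account. Without dsVg pools 1 and 5, the 2 pools farthest from the median of miR-275, r was -0.51 (permutation p = 0.130), so the relation rests on those pools. Without dsVg pool 5 alone it was -0.59 (permutation p = 0.0610). Within dsVg pools r was -0.94 (exact permutation p = 0.00833, n = 6), and within dsGFP pools it was -0.34 (exact permutation p = 0.486, n = 6). Within the arrays with more than 80 detected miRNAs r was -0.38 (exact permutation p = 0.431, n = 6), and within the other arrays it was -0.92 (exact permutation p = 0.0139, n = 6). Both the dsVg pools and the other arrays include dsVg pools 4 and 5, where miR-305 was not above background.

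The sign of this relation was negative under 23 of 25 other settings and positive under the remaining 2. Most of the 25 left out 1 or 2 pools or changed only the background step, still with quantile normalization. The count therefore does not measure how far the sign depends on the scaling. With 1 scaling factor per array or none, the sign went both ways. Scaling to the array median gave an r of 0.52 (permutation p = 0.0822), and no normalization gave 0.33 (permutation p = 0.308). On both of these scales dsVg pool 3 was the highest pool for both members. Scaling to the 75th percentile of all probes gave -0.73 (permutation p = 0.00566) and cyclic loess -0.65 (permutation p = 0.0237). Without dsVg pools 4 and 5 it was -0.54 (permutation p = 0.111). In the authors' processed values r was -0.73 (permutation p = 0.00663).

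**Figure D4:**
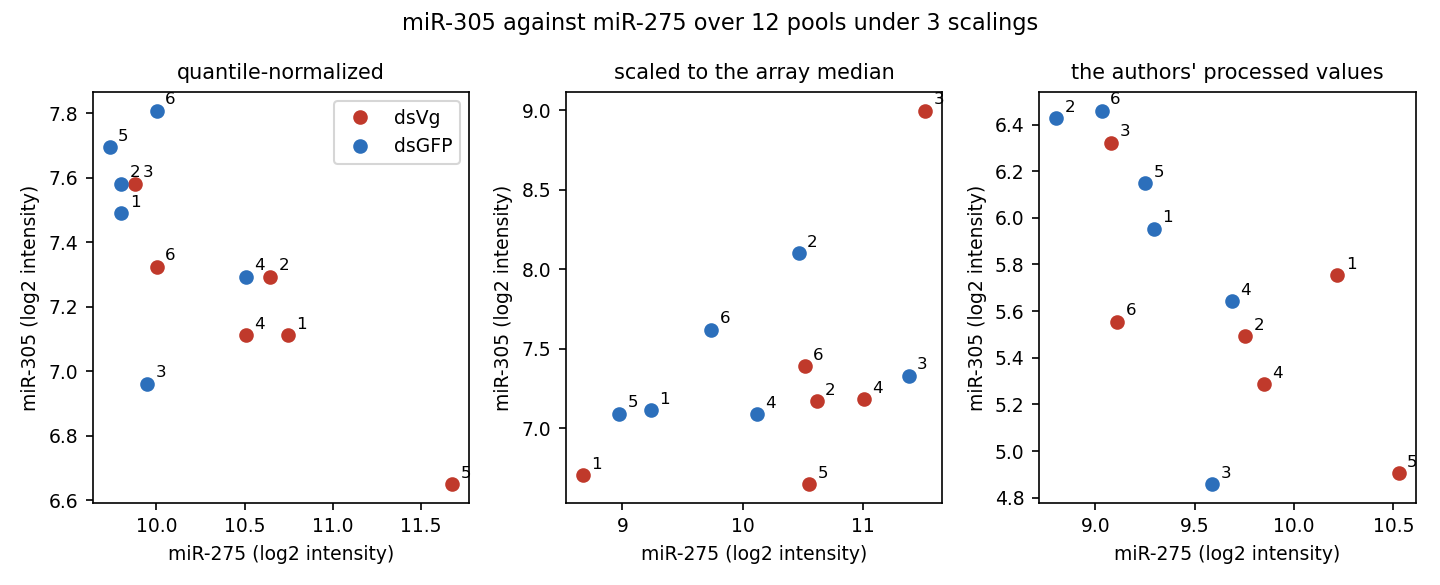
Log2 intensity of miR-305 against miR-275 over 6 dsVg pools (red) and 6 dsGFP pools (blue), numbered by pool, under quantile normalization, scaling to the array median and the authors' processed values. The points fall from left to right in the left and right panels (r of -0.78 and -0.73) and not in the middle one (r of 0.52).

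To set the pair beside other co-encoded miRNAs, levels were centred on their group means and correlated over the 12 pools. All pairs share the same arrays and normalization. The pair had an r of -0.71, and 4.59% of the 3486 pairs of tested miRNAs had a lower one, the median being 0.0036. The 13 pairs from 5 other clusters ran from -0.57 to 0.70 with a median of 0.10, and 6 of them were below 0. The pair of miR-275 and miR-305 was thus lower than all 13 under quantile normalization, and that difference was not tested. The 13 were not analysed under other scalings. Without centring, the r of miR-275 and miR-305 was 0.52 with median scaling and 0.33 without normalization. Some of the miRNAs compared were dim, with miR-306 detected on 6 arrays and miR-283 and miR-79 on 7 each.

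The miRNAs most like each member were taken as the 3 with the highest r of 83, over the 12 pools on the same centred levels. The 3 most like miR-275 were miR-210 (r = 0.92), the neuronal miR-124 (r = 0.92) and miR-34 (r = 0.89). The 3 most like miR-305 were miR-12 (r = 0.88), the likewise neuronal miR-1000 (r = 0.83) and miR-375 (r = 0.78). Scaling to the 75th percentile of the miRNAs detected on all 12 arrays lowered the first 3 to 0.0090, 0.50 and 0.18, while the last 3 were at 0.63 or above under all 25 settings run. Among the 83 other tested miRNAs ordered by likeness, miR-305 came at place 75 for miR-275. The seed partner miR-306 came at place 36 for miR-275, with an r of 0.19.

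GC content was then set beside likeness over the other 82 tested miRNAs, which share arrays and normalization and are not independent. The likeness to miR-275 was higher at higher GC (Spearman's rho = 0.51 across miRNAs) and the likeness to miR-305 was lower (rho = -0.57 across miRNAs). Exceptions stood near the top, with miR-3477 (43.5% GC) and miR-3719 (45.5% GC) next in likeness to miR-275 at an r of 0.88 each. For each array a GC slope was taken over the other 82 tested miRNAs, as the log2 change relative to the mean of all pools per 10 percentage points of GC. It was highest in dsVg pools 5 (0.39) and 1 (0.23) and lowest in dsVg pool 3 (-0.22). Over the 12 pools the level of miR-275 was higher where this slope was higher (r = 0.89, permutation p = 0.000230, adjusted p = 0.000690; rho = 0.74, permutation p = 0.00722, adjusted p = 0.0108). Without dsVg pools 1 and 5 that r was 0.63 (permutation p = 0.0541). The level of miR-305 ran the other way (r = -0.77, permutation p = 0.00357, adjusted p = 0.00357; rho = -0.76, permutation p = 0.00582, adjusted p = 0.0108), and its r without the same pools was -0.49 (permutation p = 0.150). Both relations therefore rest in part on those 2 pools.

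Within the 6 dsVg pools the r with the GC slope was 0.95 for miR-275 and -0.92 for miR-305 (exact permutation p = 0.00139 and 0.00833, n = 6). Within the 6 dsGFP pools it was 0.71 and -0.52 (exact permutation p = 0.167 and 0.285, n = 6). Within the arrays with more than 80 detected miRNAs it was 0.80 and -0.66 (exact permutation p = 0.0208 and 0.139, n = 6), and within the other arrays 0.94 and -0.82 (exact permutation p = 0.0306 and 0.0597, n = 6). Those other arrays include dsVg pools 4 and 5, where miR-305 was not above background. The slope itself averaged 0.049 ± 0.22 in dsVg pools and -0.049 ± 0.079 in dsGFP pools (SD, n = 6 each, two-sided exact permutation p = 0.359). With the GC trend of each array removed, a setting chosen after seeing the data, the differences were 0.48 (SE 0.18, limma adjusted p = 0.488) for miR-275 and -0.25 (SE 0.15, limma adjusted p = 0.707) for miR-305. The ratio difference was then 0.73 (SE 0.29) and the r between the members was -0.65 (permutation p = 0.0209).

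**Figure D5:**
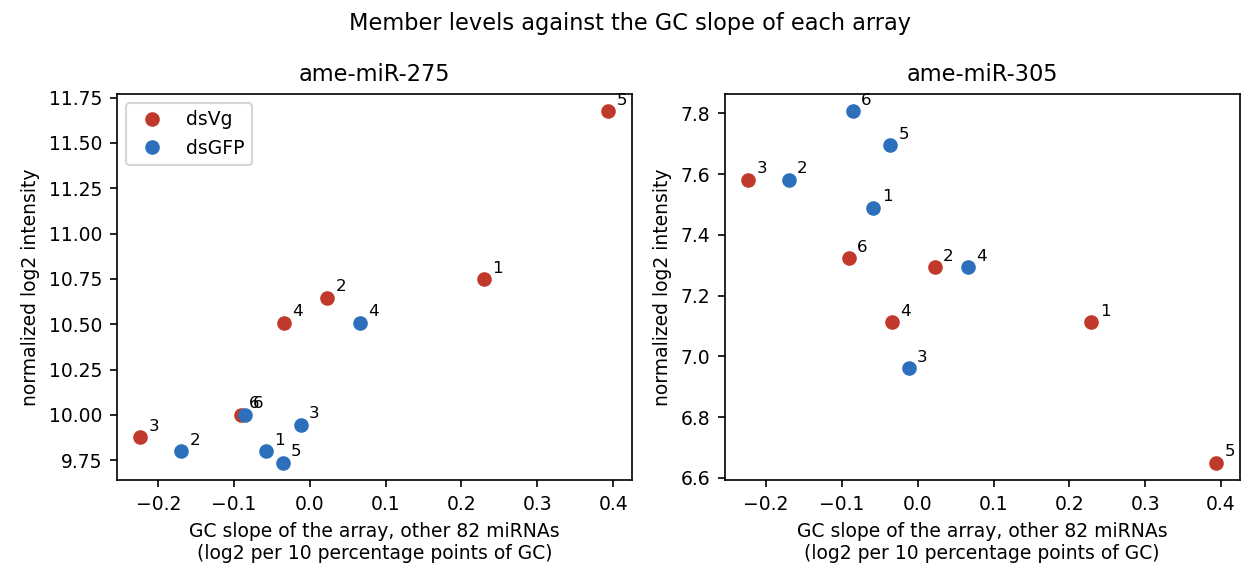
Normalized log2 intensity of miR-275 (left) and miR-305 (right) against the GC slope of the array over the other 82 tested miRNAs, for 6 dsVg pools (red) and 6 dsGFP pools (blue), numbered by pool. The points rise for miR-275 (r = 0.89) and fall for miR-305 (r = -0.77), with dsVg pools 5 and 1 at the right end of both panels.

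Markers of the tissue were read from the same arrays. Of 4 neuronal miRNAs, miR-124 was detected on 12 arrays, miR-137 and miR-1000 on 11 each and miR-9a on 6. The log2 of their summed intensity ran from 10.62 to 12.19 in dsVg pools and from 10.43 to 10.87 in dsGFP pools, with 5 of 6 dsVg pools above every dsGFP pool. Of the 4, miR-124 had the largest difference (0.85, SE 0.41) and an r with miR-275 of 0.92. The others were at -0.26 (miR-1000), -0.07 (miR-137) and 0.18 (miR-9a), and their r with miR-275 was -0.53, -0.36 and -0.63 in that order. The part of miR-124 in the result was not tested. The muscle miRNAs miR-1 and miR-133 were detected on 11 and 12 arrays, and their sum ran from 9.01 to 10.27 in dsVg pools and from 9.17 to 10.36 in dsGFP pools. That sum holds opposite differences, -0.90 (SE 0.37, limma adjusted p = 0.666) for miR-1 and 0.57 (SE 0.27, limma adjusted p = 0.666) for miR-133. All 4 gut, fat body and epithelial miRNAs (miR-375, miR-989, miR-750 and miR-278) were detected on at least 6 arrays, with sums of 8.99 to 9.62 in dsVg pools and 9.06 to 9.22 in dsGFP pools. Here too miR-375 (-0.38) and miR-989 (0.48) lay on opposite sides of 0. Each marker was thus detected on at least 6 of the 12 arrays, but miR-9a and miR-750 on only 6 and miR-278 on 7. The 6 arrays with the most detected miRNAs passed 97 to 168 of the 168 probes. Detection on about 6 arrays therefore does not show that a marker was present in the brains, and this was not tested.

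The seed partner miR-306 was dim. It was detected on 6 of 12 arrays and averaged 6.68 ± 0.088 in dsVg pools and 6.78 ± 0.13 in dsGFP pools (SD, n = 6 each). The difference was -0.10 (SE 0.083, limma adjusted p = 0.772), and it turned to 0.038 without between-array normalization.

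A list of 9 other miRNAs with known roles in nutrition, digestion or reproduction was set beside the pair. All 9 were tested and 0 of 9 passed the adjusted threshold, against 0% of all 84. Signals of 2 were higher and of 7 lower in dsVg pools, against 45 higher and 39 lower of all 84. The median difference was -0.13, where the median over all 84 was 0.03. Such counts move with the scaling. Of the 84, 12 were higher and 72 lower with the 75th percentile of the detected miRNAs, and 67 and 17 without normalization. The higher ones of the list were miR-989 (0.48, SE 0.22), an ovary miRNA in mosquitoes, and miR-278 (0.068, SE 0.14), which acts in insulin sensitivity in the fly fat body. The lower ones included miR-375 (-0.38, SE 0.12), detected in blood-fed mosquitoes, and miR-8 (-0.24, SE 0.24), which acts in the fat body of flies and mosquitoes. For miR-14, a regulator of fat metabolism in flies, the difference was -1.54 (SE 1.48), the widest error of the list. The growth regulator bantam (-0.18, SE 0.28), let-7 (-0.13, SE 0.27), miR-277 (-0.12, SE 0.10), which acts in amino acid breakdown in flies, and miR-184 (-0.065, SE 0.099), which acts in the fly germline, were also lower. The 95% intervals, not adjusted for the number of tests, include 0 for 8 of the 9, the exception being miR-375 (limma adjusted p = 0.622). Of all 84, 3.57% had an unadjusted limma p under 0.05. The signs of bantam, let-7, miR-8, miR-184, miR-277, miR-278 and miR-989 turned under at least 1 other setting. By difference, miR-275 stood at place 3 and miR-305 at place 74 of the 84.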

How the data were processed

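Small RNA from 6 dsVg and 6 dsGFP brain pools was measured on 12 one-colour (Cy3) arrays. The deposited scanner tables give spot intensity on a linear scale with the background still in it, per the file headers, and the authors' value table gives processed intensity as whole numbers by a method not given in the sources used here. Scanner and image software are likewise not given. The header of dsGFP pool 1 names a median intensity and the other 11 a mean, and the table of dsVg pool 5 alone holds whole numbers throughout (100% of spots, at most 1.11% elsewhere). Intensities of all 3968 spots were corrected with normexp (offset 50) in limma 3.58.1 (R 4.3.3), each probe was summarised as the mean log2 value of its 18 spots, and quantile normalization was run over the 168 miRNA probes. The 84 miRNAs detected on at least 6 arrays were tested with lmFit and eBayes (two-sided, Benjamini-Hochberg over 84), dsVg minus dsGFP, a procedure checked on simulated data. The simulated miRNAs were independent and had equal spread in both groups. That check therefore does not cover the correlated miRNAs and unequal spread of these data. Exact permutation tests used all 924 assignments of pools (smallest p 0.00216), and correlations over 12 pools used 100000 permutations. With 6 arrays per group, that number limits the precision.

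The members, lists and settings were chosen with earlier results of these data known. Named were the 2 members, the 3 miRNAs most like each, seed partners and a list of 9 miRNAs. Means of replicate pools differed beyond spot noise in all 30 within-group pairs (mean squared difference over its spot variance 45.6 to 3653). Pool numbers were not treated as pairs: 2 of 6 same-numbered pools had deviations correlated above 0.1. The labels and files name no batch.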

Additional observations from a re-analysis of the deposited data

Results flagged for a closer look

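In all, 3 levels stood apart within their group of 6 pools, by the gap to the nearest other pool relative to the range of the group (Dixon's test at the 95% level). The level of miR-275 in dsGFP pool 4 was 10.51, with a gap of 0.657 of the range, and it lay above the other 5 dsGFP pools. Without that pool the difference of miR-275 was 0.73. The level of bantam in dsVg pool 5 was 9.08 (0.782 of the range), below the other dsVg pools, and that of miR-184 in dsVg pool 3 was 13.96 (0.75 of the range), also below. The test was run on 26 groups of values, and chance flags about 1 in 20. The high value of miR-275 in dsVg pool 5 (11.68) was not flagged.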

How the results depend on the processing

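The difference of miR-275 kept its sign under all 31 other settings (0.095 to 0.88, limma adjusted p from 0.222 to 0.984). That of miR-305 kept its sign under 28 of 30 (limma adjusted p from 0.246 to 0.988). It turned to 0.016 without normalization and 0.081 within the arrays with more than 80 detected miRNAs. Settings that change only the filter or add the replicate block reuse the same levels and could not change these differences. With 1 pool left out they ran from 0.38 to 0.75 for miR-275, from -0.37 to -0.19 for miR-305 and from 0.58 to 1.10 for the ratio. The number of miRNAs past the adjusted threshold was 0 under 28 of 29 settings and 1 with arrays weighted by quality, miR-375 at -0.44 (limma adjusted p = 0.0385, its range over 30 settings being 0.0385 to 0.984). The r between the members was -0.91 to -0.59 with 1 pool left out, -0.59 being that without dsVg pool 5 (permutation p = 0.0610). It was -0.51 without dsVg pools 1 and 5, -0.54 without dsVg pools 4 and 5 (a setting chosen after seeing the data), 0.52 with median scaling, 0.33 without normalization and -0.40 with the 75th percentile of the detected miRNAs; the cause was not tested. The setting limited to miRNAs detected on all arrays gave no value for miR-305. With the pool number as a replicate block, the adjusted limma p was 0.753 for both members (differences 0.61 and -0.29) and the count of calls was 0. Most same-numbered pools did not deviate together (r of -0.27 to 0.53, with 2 of 6 above 0.1). Of the dsVg pools, 0 of 6 were most like the dsGFP pool of their number.

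Signs of other miRNAs also turned. With the 75th percentile of all probes, the median, or no normalization, miR-184 was at 0.15, 0.28 and 0.34, and miR-277 at 0.092, 0.22 and 0.28. Without normalization miR-306 was at 0.038. With array weights bantam was at 0.092 and miR-8 at 0.11, and without dsVg pools 1 and 5 they were at 0.18 and 0.089; without dsVg pools 4 and 5 bantam was at 0.094, miR-275 at 0.35 and miR-305 at -0.14. With the 75th percentile of the detected miRNAs, miR-278 was at -0.22 and miR-989 at -0.030. Within the arrays with more than 80 detected miRNAs bantam was at 0.15 and miR-278 at -0.034, and within the others let-7 was at 0.51 and miR-277 at 0.057. With 1 pool left out, bantam ran from -0.28 to 0.11 (without dsVg pool 5), miR-184 from -0.094 to 0.010 (without dsVg pool 3), let-7 from -0.29 to 0.0053 (without dsGFP pool 3; 0.0039 without dsVg pool 1), miR-8 from -0.37 to -0.040 (without dsVg pool 5) and miR-14 from -2.53 (without dsVg pool 3) to -0.91 (without dsVg pool 1). Signal close to the empty spots limits what can be seen of miR-305.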
